A study of Mus musculus with 6 samples.

Results

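The core histone genes of the 4 mouse histone clusters were taken as every row of the deposited count table whose symbol starts with Hist1 to Hist4 and goes on with h2a, h2b, h3 or h4. The rule found 63 of 24516 genes. Of these, 54 had at least 10 counts summed over the 6 libraries and are described here, and 36 passed the low-count filter and were tested together with all other genes (13427 tested). Another 7 genes were at 0 in every library (Hist1h4m, Hist1h2ao, Hist1h2ap, Hist1h2br, Hist1h2bq, Hist2h3c2 and Hist2h2aa1), and Hist2h3c1 and Hist1h2aa held 1 count each. The genes just inside the minimum were Hist1h2ba and Hist1h2ad, with 10 counts each. By histone type the described genes were 15 for H2A, 17 for H2B, 10 for H3 and 12 for H4. By cluster they were 43 in Hist1, 7 in Hist2, 3 in Hist3 and 1 in Hist4. The symbols and the annotation did not match throughout: GENCODE M21 lists 52 of the 54 as protein coding and Hist1h2al and Hist3h2bb-ps as processed pseudogenes. Hist1h2ba, which encodes a testis type of H2B, also meets the naming rule.

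The libraries came from 1 mouse embryonic fibroblast line with inducible Mef2c, Gata4 and Tbx5 (doxycycline, 1 ug/mL), the factors known for driving fibroblasts toward a cardiomyocyte-like state. The cells also hold a Myh6-eGFP reporter, named for a cardiac myosin heavy chain gene. All 3 groups carried these transgenes and received doxycycline. They differed in the siRNA given on the day before induction: siControl, siJunb (against Junb, an AP-1 subunit) or siH1f0 (against H1f0, the linker histone H1.0). Each group held 2 libraries of poly(A) RNA, described as biological replicates of the same line. The sample labels give day 1 after induction, whereas the description of the series says day 3, with cells sorted for GFP, so the time of harvest and the sorting of these libraries cannot be settled here.

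Core histones form the octamer around which nuclear DNA is wound: a tetramer of H3 and H4 flanked by dimers of H2A and H2B. Most of their genes sit in clusters, lack introns and are transcribed in S phase, when new chromatin is assembled. Their mRNAs as a rule end in a short stem-loop bound by the protein Slbp and have no poly(A) tail. Some cluster genes also give polyadenylated transcripts, which are better known from cells that have left the cell cycle. A poly(A)-selected library therefore samples only some of this RNA.

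The histone 3′ stem-loop is shown here because mRNAs that end in it as a rule have no poly(A) tail. A search of the GENCODE M21 transcripts (GRCm38, the build that mm10 names) found it in 51 of 55341 genes (0.0922%). Of those genes, 40 were core histone genes of the clusters, 4 were linker histone genes of the clusters and 7 were others. Among the 54 described genes it was found in 34, in 6 forms, given below with 5 bases on either side, and the capitals mark the 16-base stem-loop.
Hist3h2a: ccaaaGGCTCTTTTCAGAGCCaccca
Hist1h2be: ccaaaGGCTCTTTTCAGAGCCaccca
Hist1h2bj: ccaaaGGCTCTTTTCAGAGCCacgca
Hist1h3c: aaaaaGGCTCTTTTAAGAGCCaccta
Hist1h3e: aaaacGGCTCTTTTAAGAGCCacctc
Hist1h4n: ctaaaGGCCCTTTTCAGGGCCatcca
Hist1h4i: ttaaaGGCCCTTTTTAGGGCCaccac
Hist1h4j: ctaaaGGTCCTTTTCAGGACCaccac
Hist2h2ac: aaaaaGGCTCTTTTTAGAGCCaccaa
The form shown for Hist3h2a was the most common, with 18 genes: 7 for H2A, 8 for H2B and 3 for H3. The form of Hist1h3c and Hist1h3e was held by 5 genes, 3 for H3 and 2 for H2B. The 3 forms whose stem reads GGCC or GGTC were found in H4 genes alone: 6 genes shared that of Hist1h4n, 2 that of Hist1h4i and 2 that of Hist1h4j. Hist2h2ac had a form of its own. Not every annotated transcript ends near the stem-loop. Up to 1643 bases follow it in Hist3h2a, 1861 in Hist1h2be, 369 in Hist1h3e and 330 in Hist1h4i. In Hist1h2bj, Hist1h4n, Hist2h2ac and Hist1h3c the values were 23, 31, 57 and 74 bases. On GRCm38 the element lies at chr11:58955172-58955187 (plus strand) for Hist3h2a, at chr13:23745047-23745062 (minus strand) for Hist1h3c, at chr13:23561903-23561918 (minus strand) for Hist1h3e and at chr13:21831798-21831813 (minus strand) for Hist1h4n. No stem-loop was found in the annotated transcripts of the other 20 genes, which says only that these letters are not in those transcripts. For Hist1h4k, for example, the GENCODE transcript is 312 bases long and the length by the count file 409 bases. In Hist1h2be, Hist2h2be and Hist3h2a, among 12 described genes in all, a transcript held a poly(A) signal, AATAAA or ATTAAA, within its last 50 bases, and 10 of these 12 also held the stem-loop.

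Promoters were searched on both strands for 4 motifs, none of which contains another, in RefSeq windows from 250 bases before to 50 bases after the start site (GRCm38.p6), which 47 of the 54 genes had. CCAAT was held by 39 of the 47 (83.0%) against 37.9% of 27025 genes: 14 of 14 H2A genes, 14 of 14 H2B genes and 8 of 8 H3 genes, but 3 of 11 H4 genes. TATAAA was held by 28 (59.6%) against 14.2%. The octamer ATTTGCAT, the site that POU factors such as Oct-1 are known to bind in H2B promoters, was held by 12 (25.5%) against 1.75% of genes, in 6 H2A and 6 H2B promoters and in 0 H3 and 0 H4 promoters. TGACTCA, the AP-1 motif, was found in 0 of the 47 windows and in 5.17% of all windows. The octamer windows of 3 genes are shown with the octamer in capitals, for the gene with the lowest adjusted p, for the gene with the highest level and for a promoter that points both ways.
Hist2h2bb: tgaaacctcATTTGCATacaagctct
Hist3h2a: gtaaggcatATGCAAATtaggaaggc
Hist1h2bg: gagtcccttATTTGCATagaacctct
These octamers lie at chr3:96269652-96269659, chr11:58954566-58954573 and chr13:23571341-23571348 on GRCm38. That of Hist3h2a is written in the reverse orientation, and that of Hist1h2bg also lies in the window of Hist1h2ae, which is transcribed the other way. Other neighbouring H2A and H2B genes of Hist1 share windows in this way. The same sites are then counted once for each gene, so the counts above are not of separate promoters.

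Library totals ran from 48690447 to 85979630 counts. The siRNA targets fell in their own groups: Junb (39.5 and 35.6 CPM in siControl) stood at 10.5 and 8.73 CPM with siJunb, and H1f0 (808 and 741 CPM) at 52.3 and 55.3 CPM with siH1f0. CPM here are counts divided by the library's total and scaled to 1000000. The 10 fibroblast markers summed to between 4727 and 5038 CPM in every library, the 7 cardiomyocyte markers to between 110 and 138 CPM, and endothelial, epithelial and leukocyte markers to under 1 CPM. Library siControl 1 stood apart in RNAs that carry no poly(A) tail. The 19 such RNAs in the table summed to 19093 CPM in siControl 1. They summed to 6314 CPM in siControl 2, to 6589 and 5018 CPM in the siJunb libraries and to 3099 and 3500 CPM in the siH1f0 libraries, nearly all of it Rn45s, the precursor of ribosomal RNA. Results are therefore given with both siControl libraries apart, and with the calls left when siControl 1 was taken out.

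Core histone mRNA made up a small share of these libraries. All 54 genes summed to 51.0 CPM in siControl 1 and 39.9 CPM in siControl 2, to 32.4 and 31.1 CPM in the siJunb libraries, and to 26.9 and 26.4 CPM in the siH1f0 libraries. These were 4387, 2634, 2069, 1516, 1598 and 1735 counts in that order. Both knockdown groups lay below both siControl libraries, and the siH1f0 libraries lay below the siJunb libraries. In bulk RNA, fewer cells in S phase and less histone RNA per cell cannot be told apart. The RNAs without poly(A) tails also differed between the libraries, as given above, and their part in these sums was not tested. Only 5 genes averaged at least 1 CPM over the 6 libraries, and these held 72.6% of the summed CPM.

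Per kilobase of the length in the count table, Hist3h2a had by far the highest mean level, 24.3 CPM per kb. Hist1h2bc followed with 4.80 CPM per kb, Hist2h2bb with 3.998, Hist1h4i with 2.09, Hist2h2be with 1.57, Hist1h4k with 1.54, Hist1h4d with 1.20 and Hist1h2al with 0.988. The highest H3 gene was Hist1h3e, with 0.974 CPM per kb. The leading H2A and H2B genes came from Hist3, Hist1 and Hist2, whereas the leading H3 and H4 genes came from Hist1.

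**Figure D1:**
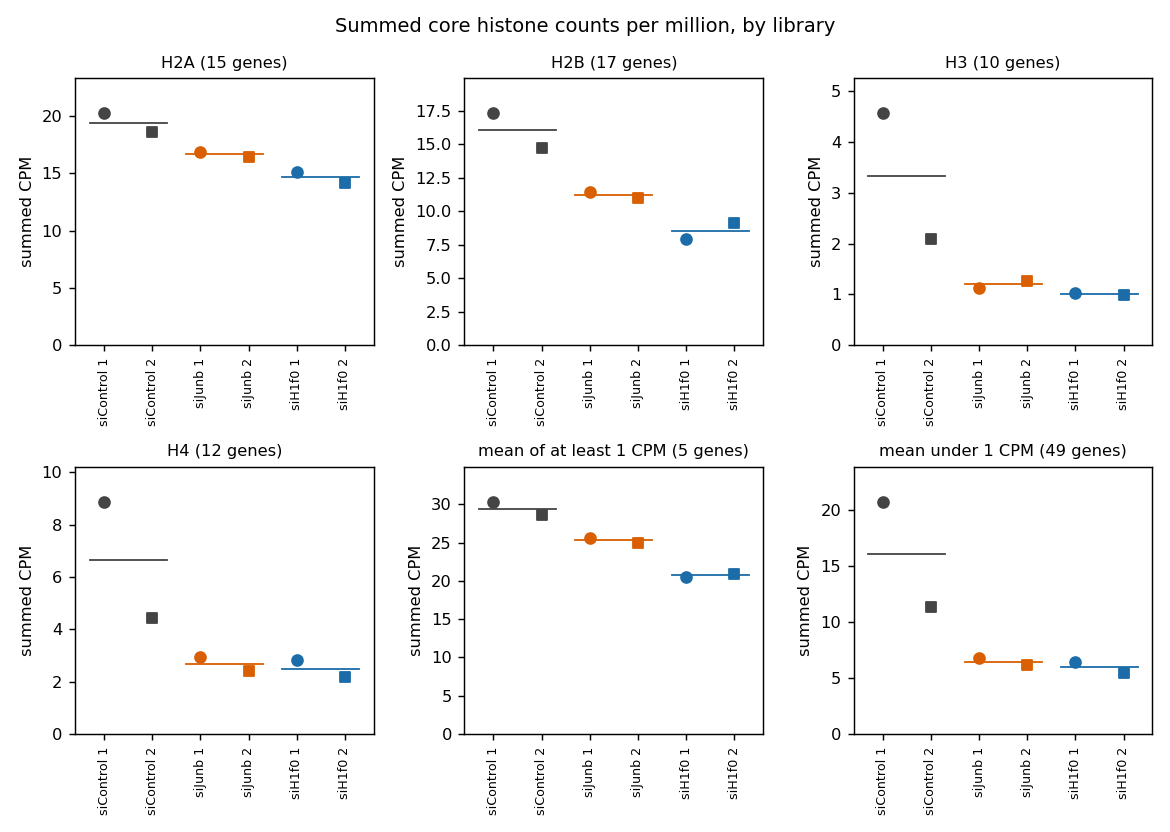
Summed CPM ( vertical axes from 0, a scale per panel) of the H2A, H2B, H3 and H4 genes, of the 5 genes with a mean of at least 1 CPM and of the 49 others, for each library (points) with the group mean (lines). In each panel siControl 1 is the highest library, and for H3 it reaches 4.57 CPM against 2.09 CPM in the other siControl library.

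The siControl libraries differed most in H3 and H4. H3 genes summed to 4.57 CPM in siControl 1 and 2.09 CPM in siControl 2, a ratio of 2.19 (95% interval from the counts 1.80 to 2.67, which covers counting error only). H4 genes summed to 8.86 and 4.44 CPM, a ratio of 2.00 (1.74 to 2.29). The ratio was 1.17 (1.08 to 1.27) for H2B and 1.09 (1.01 to 1.17) for H2A. The intervals of H3 and H4 lay above those of H2A and H2B. The 5 genes with a mean of at least 1 CPM are all H2A or H2B genes. As a sum these 5 had a ratio of 1.06, and the other 49 genes a ratio of 1.83. Type and level therefore cannot be told apart in these sums.

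Gene by gene, 45 of the 54 were higher in siControl 1, where 54.9% of all genes with at least 10 counts were higher. At least 1.5-fold higher were 32 of 54, against 7.63% of those genes, a background that is not matched for level. By type this was 9 of 10 H3 genes, 10 of 12 H4 genes, 8 of 17 H2B genes and 5 of 15 H2A genes. It was 0 of the 5 genes with a mean of at least 1 CPM, and all 32 were among the other 49. The median log2 difference between the siControl libraries was 1.10 for H3, 1.14 for H4, 0.47 for H2B and 0.09 for H2A.

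The largest such differences among genes with a mean of at least 0.2 CPM were in 4 H4 genes and 1 H3 gene. Hist1h4d stood at 1.33 and 0.288 CPM in siControl 1 and 2, Hist4h4 at 0.768 and 0.273 CPM, and Hist1h4h at 1.16 and 0.455 CPM. Hist1h3e stood at 1.31 and 0.561 CPM and Hist2h4 at 0.709 and 0.303 CPM. For Hist1h4d the lower siControl library lay within the range of the siJunb libraries (0.219 and 0.370 CPM). For Hist1h4h, Hist4h4, Hist1h3e and Hist2h4 it lay above both libraries of each knockdown. The RNAs without poly(A) tails moved the same way between the siControl libraries (19093 and 6314 CPM), and their part in these differences was not tested.

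**Figure D2:**
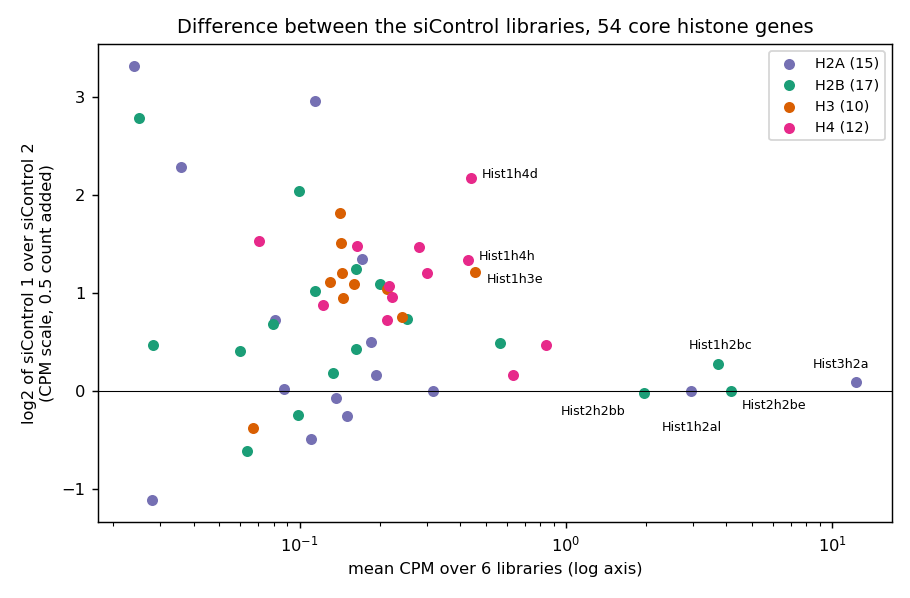
Log2 ratio of siControl 1 to siControl 2 (vertical axis, CPM scale with 0.5 count added) against the mean CPM over 6 libraries (horizontal log axis) for the 54 described genes, coloured by histone type. The 5 genes with a mean of at least 1 CPM lie near 0, and nearly all H3 and H4 genes lie above it, with Hist1h4d at 1.33 CPM against 0.288 CPM.

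Between groups, the H3 and H4 sums were read first. In siJunb, H3 genes summed to 1.13 and 1.27 CPM and H4 genes to 2.94 and 2.40 CPM. In siH1f0 they summed to 1.03 and 0.989 CPM and to 2.81 and 2.16 CPM. All 4 knockdown libraries lay below both siControl libraries in H3 and in H4. The mean over siJunb was 0.360 of the siControl mean for H3 and 0.402 for H4, but 0.574 and 0.602 of siControl 2 alone. For siH1f0 the shares were 0.303 and 0.374 of the mean, and 0.482 and 0.560 of siControl 2 alone.

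The sums of the dimer histones were as follows. H2A genes summed to 20.3 and 18.6 CPM with siControl, 16.9 and 16.5 CPM with siJunb and 15.2 and 14.1 CPM with siH1f0. H2B genes summed to 17.3 and 14.8 CPM, 11.4 and 10.99 CPM, and 7.92 and 9.10 CPM. The groups did not overlap for either type. Against the siControl mean the siJunb share was 0.858 for H2A and 0.699 for H2B, and the siH1f0 share 0.754 and 0.530. Against siControl 2 alone the siJunb share was 0.895 for H2A and 0.760 for H2B, and the siH1f0 share 0.787 and 0.576, the latter close to the 0.560 of H4. Within Hist1, the siJunb share of siControl 2 was 0.628 for H2B and 0.602 for H4, and the siH1f0 share 0.554 and 0.547. The 5 genes with a mean of at least 1 CPM are all H2A or H2B genes, and a difference between types was not tested.

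By cluster, Hist1 summed to 26.9 and 17.9 CPM with siControl, 12.2 and 11.5 CPM with siJunb and 9.92 and 9.90 CPM with siH1f0. Hist2 summed to 9.13 and 8.35 CPM, 7.67 and 7.17 CPM, and 5.41 and 5.17 CPM. Hist3, nearly all of it Hist3h2a, summed to 14.2 and 13.4 CPM, 12.4 and 12.2 CPM, and 11.5 and 11.2 CPM. Hist4 holds Hist4h4 alone, at 0.768 and 0.273 CPM, 0.157 and 0.267 CPM, and 0.067 and 0.152 CPM. As a ratio of siControl 1 to siControl 2 this was 2.81 for Hist4, 1.505 for Hist1, 1.09 for Hist2 and 1.06 for Hist3. Against siControl 2 alone the siH1f0 share was 0.402 for Hist4, 0.553 for Hist1, 0.633 for Hist2 and 0.848 for Hist3.

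The Hist1 genes fall into 2 stretches of chromosome 13 and 1 gene that lies far from them. The 17 genes of chr13:21715763-22043676 summed to 7.32 and 4.86 CPM with siControl, 2.79 and 1.73 CPM with siJunb and 2.68 and 2.21 CPM with siH1f0. The 25 genes of chr13:23531050-23934156 summed to 16.4 and 9.79 CPM, 5.96 and 6.55 CPM, and 5.05 and 5.40 CPM. In both stretches every knockdown library lay below both siControl libraries. The lone gene Hist1h2al (chr13:51202727-51203065) stood at 3.24 and 3.26 CPM, 3.43 and 3.27 CPM, and 2.19 and 2.30 CPM, so that only the siH1f0 libraries were low.

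The genes were also summed by level. The 5 higher genes summed to 30.3 and 28.6 CPM with siControl, 25.6 and 25.0 CPM with siJunb and 20.5 and 20.9 CPM with siH1f0. The 49 lower genes summed to 20.7 and 11.3 CPM, 6.75 and 6.16 CPM, and 6.38 and 5.48 CPM. Over the 12 genes with a poly(A) signal at a transcript end the sums were 25.3 and 21.8 CPM, 18.8 and 18.5 CPM, and 17.1 and 16.3 CPM. Over the other 42 they were 25.7 and 18.1 CPM, 13.6 and 12.6 CPM, and 9.77 and 10.1 CPM. As sums, the genes without an annotated signal had the larger gap between the siControl libraries, 1.42-fold against 1.16-fold. Most of the sum with a signal came from Hist3h2a (14.0 and 13.2 CPM with siControl) and Hist2h2be (5.09 and 5.09 CPM). Gene by gene, 6 of the 12 and 26 of the 42 were at least 1.5-fold higher in siControl 1. Whether the signal bears on the gap was not tested.

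In siJunb against siControl, 6 of the 36 tested core histone genes fell and 0 rose, by edgeR's quasi-likelihood test with Benjamini-Hochberg adjustment over all genes. Of all genes tested, 16.5% were called, with 7.82% lower than siControl and 8.63% higher, so the 6 lower calls stand against a background of 7.82%. The log2 change was negative for 33 of the 36, with a median of −1.12 (0.00 over all genes tested). At an unadjusted p under 0.05 there were 16, all lower. In CPM, 34 of the 54 genes were lower in both siJunb libraries than in either siControl library, 3 were higher in both and 17 overlapped, against 33.1% lower and 22.0% higher among all genes with at least 10 counts. Because the filter also keeps genes that are high in 1 group alone, counts over the 36 describe those genes and not all 54.

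Among H2A and H2B genes, 3 fell in siJunb. Hist1h2bc, an H2B gene of chr13:23684199-23692908, stood at 5.68 and 4.68 CPM with siControl, 3.16 and 3.08 CPM with siJunb and 2.51 and 3.18 CPM with siH1f0. Every knockdown library lay below both siControl libraries, and Hist1h2bc fell in both comparisons, by 0.70 on the log2 scale (SE 0.15, adjusted p = 0.0186) in siJunb and by 0.88 (SE 0.15, adjusted p = 0.0136) in siH1f0. It was the only gene with a mean of at least 1 CPM that was called in siJunb.

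The H2A gene Hist1h2ak held 39 and 21 counts in siControl, 2 and 4 in siJunb and 7 and 7 in siH1f0, which is 0.454 and 0.318 CPM, 0.031 and 0.082 CPM, and 0.118 and 0.106 CPM. The siJunb libraries were the lowest, and the groups did not overlap. Its log2 change was −2.78 in siJunb (SE 0.60, adjusted p = 0.0163) and −1.80 in siH1f0 (adjusted p = 0.0696, not called). An annotated transcript on the opposite strand, Gm44454, overlaps it, and the strand setting of the counts is not given in the sources used here, so the 2 sources of reads cannot be told apart. The H2B gene Hist1h2bj stood at 0.372 and 0.273 CPM, 0.078 and 0.082 CPM, and 0.084 and 0.091 CPM. Both knockdowns lay well below siControl and close to each other. Its log2 change was −1.97 in siJunb (SE 0.53, adjusted p = 0.0365) and −1.88 in siH1f0 (adjusted p = 0.0604). The siJunb call was lost under 9 alternatives, among them without siControl 1 (adjusted p = 0.137) and with all genes of at least 10 counts tested (adjusted p = 0.0529).

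Among H3 genes, Hist1h3c and Hist1h3e fell in siJunb, and both carry the stem-loop form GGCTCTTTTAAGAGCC shown above. Hist1h3c held 36 and 14 counts in siControl, 3 and 1 in siJunb and 5 and 6 in siH1f0 (0.419 and 0.212 CPM, 0.047 and 0.021 CPM, 0.084 and 0.091 CPM). It had the largest log2 change of the tested core histone genes in siJunb, −3.08 (SE 0.72, adjusted p = 0.0221), on few counts, and without siControl 1 the adjusted p was 0.0801. Hist1h3e stood at 1.31 and 0.561 CPM with siControl, 0.360 and 0.144 CPM with siJunb and 0.202 and 0.167 CPM with siH1f0. Its siControl libraries differed by more than siControl 2 differed from siJunb 1. The log2 change was −1.82 in siJunb (SE 0.52, adjusted p = 0.0444) and −2.38 in siH1f0 (SE 0.54, adjusted p = 0.0363). Without siControl 1 the siJunb value was −1.06 (adjusted p = 0.177), and the siH1f0 call was lost as well (adjusted p = 0.0554).

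Of the 11 tested H4 genes all had a negative log2 change in siJunb, with a median of −1.33, and Hist1h4k was called. It stood at 1.22 and 1.09 CPM with siControl, 0.485 and 0.164 CPM with siJunb and 0.505 and 0.319 CPM with siH1f0. Here the siControl libraries lay close together and all 4 knockdown libraries lay below them. The log2 change was −1.73 in siJunb (SE 0.41, adjusted p = 0.0240) and −1.51 in siH1f0 (SE 0.39, adjusted p = 0.0556, not called). Hist1h4i, the H4 gene with the highest level, stood at 1.22 and 0.879 CPM, 0.736 and 0.616 CPM, and 0.876 and 0.730 CPM. In Hist1h4i, siH1f0 1 nearly reached the level of siControl 2, while siH1f0 2 lay near siJunb 1. Neither change passed the test (adjusted p = 0.168 and 0.388).

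Without siControl 1, 3 core histone genes were called in siJunb, all lower and all among the 6 above: Hist1h2ak, Hist1h2bc and Hist1h4k. Without siControl 2 the number was 22, and it held all 6. Over all genes the lower calls rose as well, from 1050 to 2140 without siControl 1 (15.6% of those tested, against 7.89% of the tested core histone genes) and to 2486 without siControl 2 (18.1% against 52.4%). The median log2 change was −0.55 without siControl 1 and −1.76 without siControl 2. With 1 siControl library left, the filter keeps a gene that reaches the minimum in 1 library alone. The 36 core histone genes tested became 38 without siControl 1 and 42 without siControl 2. A gene can then enter by the siControl library it is tested against, so the shares without siControl 2 are not read as a result. The calls over all genes fell from 2209 to 371 without siJunb 1 and to 352 without siJunb 2. Of the core histone genes, without siJunb 1 only Hist1h4k was called, the other 5 having adjusted p from 0.109 to 0.224, and without siJunb 2 none was, with adjusted p from 0.0809 to 0.250. Leaving out either siH1f0 library left the same 3 calls as leaving out siControl 1, with Hist1h3c at adjusted p = 0.0541 and 0.0538.

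**Figure D3:**
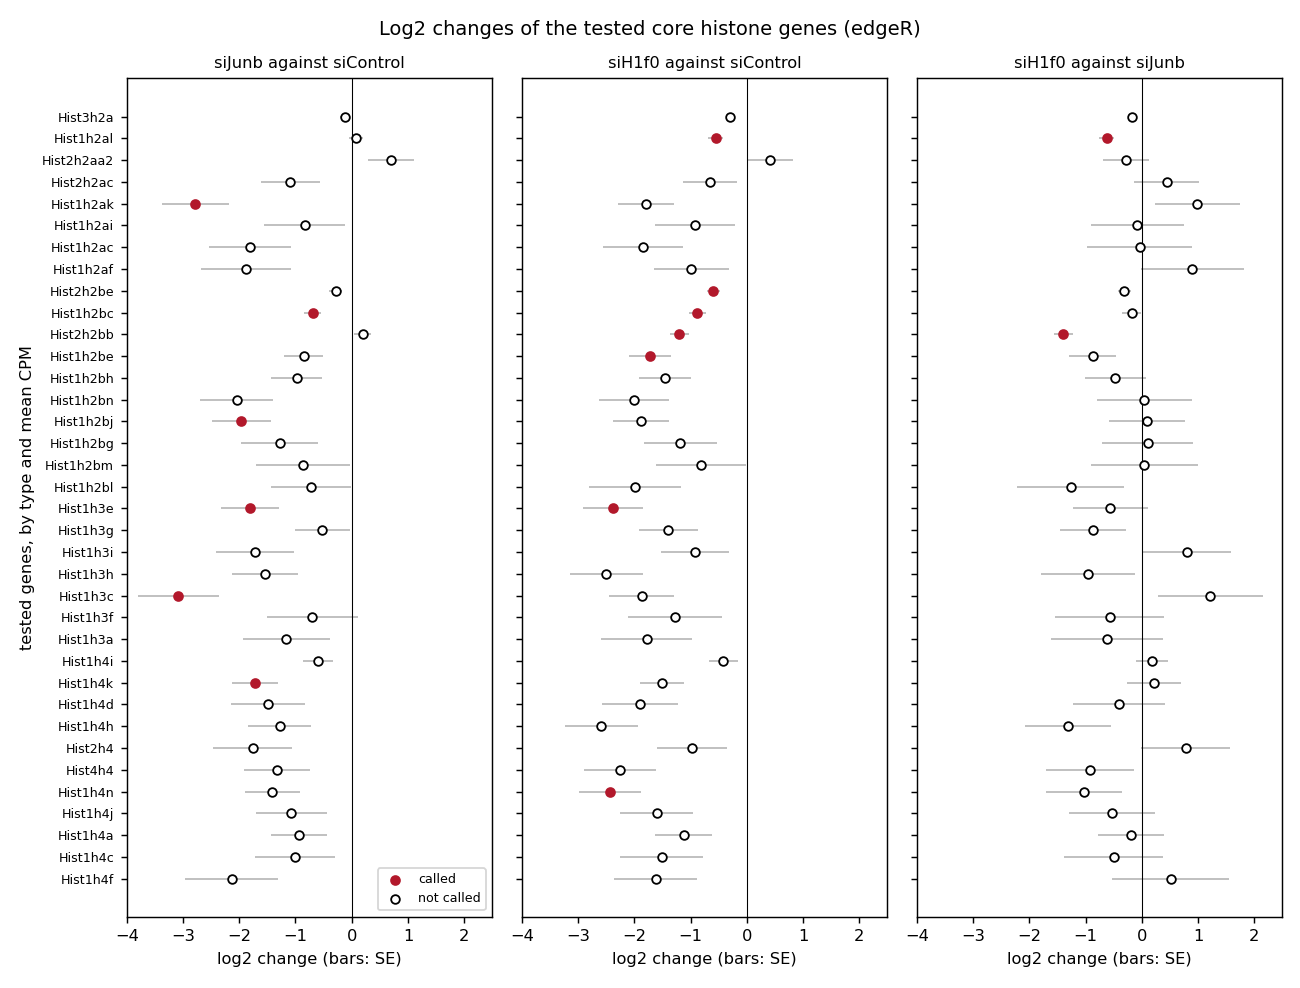
Log2 changes (horizontal axes) with standard errors (bars) of the 36 tested core histone genes, ordered by type and mean CPM, in the 3 comparisons, with called genes filled. Against siControl nearly all points lie left of 0 (33 of 36 for siJunb and 35 of 36 for siH1f0), whereas siH1f0 against siJunb has points on both sides.

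In siH1f0 against siControl, 7 of the 36 tested genes fell and 0 rose, against 4.27% of all genes lower and 2.27% higher (6.55% called either way). The log2 change was negative for 35 of the 36, with a median of −1.48 (0.00 over all genes), and 22 genes were at an unadjusted p under 0.05, all lower. In CPM, 43 of the 54 genes were lower in both siH1f0 libraries than in either siControl library, 1 was higher and 10 overlapped. Of all genes with at least 10 counts, 21.4% were lower in this way and 27.6% higher. By type the median log2 change was −0.79 for H2A, −1.33 for H2B, −1.78 for H3 and −1.60 for H4. Hist1h2bc and Hist1h3e were called in both knockdowns. The knockdowns share the siControl libraries, so their calls are not independent.

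The H2B genes of the Hist2 cluster fell in siH1f0. Hist2h2bb (chr3:96269752-96270132) stood at 2.29 and 2.33 CPM with siControl, 2.60 and 2.57 CPM with siJunb and 1.08 and 0.958 CPM with siH1f0. The siControl libraries were nearly equal, siJunb lay slightly above them and siH1f0 far below. Hist2h2bb fell by 1.20 on the log2 scale (SE 0.17, adjusted p = 0.00513), while in siJunb it was at 0.20 (adjusted p = 0.417). Its counts may hold reads of overlapping annotated transcripts, Gm20628 on the opposite strand and Gm42743 on the same strand, which cannot be told apart here.

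Hist2h2be, whose counted length of 2667 bases is among the longest of the core histone genes, stood at 5.09 and 5.09 CPM with siControl, 4.23 and 3.90 CPM with siJunb and 3.30 and 3.50 CPM with siH1f0. The siControl libraries were equal and the 3 groups did not overlap. Hist2h2be fell by 0.60 on the log2 scale (SE 0.12, adjusted p = 0.0214) in siH1f0. In siJunb its log2 change was −0.29 (adjusted p = 0.126), which did not pass the test. It shares no 50-base window with another Hist gene's transcript.

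Within Hist1, the H2B gene Hist1h2be stood at 1.07 and 0.758 CPM with siControl, 0.360 and 0.657 CPM with siJunb and 0.253 and 0.304 CPM with siH1f0. The siH1f0 libraries were the lowest, and the siJunb libraries spread between them and siControl. Hist1h2be fell by 1.73 on the log2 scale (SE 0.37, adjusted p = 0.0313) in siH1f0. The annotated Hist1h2be locus spans the linker histone gene Hist1h1e on the same strand, whose own log2 change in siH1f0 was −1.01 (adjusted p = 0.0391).

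Hist1h2al, the H2A row that GENCODE lists as a pseudogene, fell by 0.55 on the log2 scale (SE 0.13, adjusted p = 0.0462) in siH1f0 and was at 0.08 (adjusted p = 0.715) in siJunb. Its length in the count table is 2983 bases against 339 bases in GENCODE, so the region counted is larger than the annotated gene, and the annotated transcript Gm44341 overlaps it on the opposite strand. The siH1f0 call was lost under 7 of 14 alternatives, among them limma-voom (adjusted p = 0.0608), the 4 compared libraries alone (0.108) and the replicate block (0.0755). The H4 gene Hist1h4n held 49 and 19 counts in siControl, 11 and 7 in siJunb and 5 and 5 in siH1f0 (0.570 and 0.288 CPM, 0.172 and 0.144 CPM, 0.084 and 0.076 CPM). Every siH1f0 library was below every siJunb library, and those were below siControl. Hist1h4n fell by 2.44 on the log2 scale (SE 0.55, adjusted p = 0.0361) in siH1f0, and without siControl 1 the adjusted p was 0.117.

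Genes that stood highest or in the small clusters were not all called. Hist3h2a stood at 14.0 and 13.2 CPM with siControl, 12.2 and 12.2 CPM with siJunb and 11.5 and 10.98 CPM with siH1f0. The 3 groups did not overlap, yet its log2 changes were −0.12 (SE 0.08, adjusted p = 0.309) in siJunb and −0.29 (SE 0.08, adjusted p = 0.0576) in siH1f0, the smallest in size of the 36 tested genes in siH1f0. The annotated locus of Hist3h2a overlaps Trim17 on the same strand. Hist1h4h had the largest log2 change in siH1f0, −2.59 (SE 0.65, adjusted p = 0.0509), at 0.236 and 0.046 CPM against 1.16 and 0.455 CPM. Hist4h4 was at −2.25 (adjusted p = 0.0762), Hist1h4d at −1.90 (adjusted p = 0.136), Hist1h3g at −1.40 (adjusted p = 0.160) and Hist2h4 at −0.98 (adjusted p = 0.391).

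Not all values went down. Hist2h2aa2, an H2A gene of the Hist2 cluster, stood at 0.244 and 0.242 CPM with siControl, 0.454 and 0.308 CPM with siJunb and 0.387 and 0.274 CPM with siH1f0. All 4 knockdown libraries lay above siControl, but the log2 changes, 0.70 (SE 0.41, adjusted p = 0.273) and 0.42 (SE 0.41, adjusted p = 0.594), did not pass the test. All of its 50-base windows (100%) occur in another Hist gene's transcript, and its near copy Hist2h2aa1 was at 0, so the split of reads between them is uncertain. Hist2h2ac, its neighbour, was at 0.291 and 0.258 CPM, 0.094 and 0.164 CPM, and 0.219 and 0.137 CPM, with changes of −1.09 (adjusted p = 0.190) and −0.65 (adjusted p = 0.461).

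The 18 described genes that were not tested held 10 to 61 counts over all libraries. In the small clusters these were Hist2h3b (34 and 7 counts in siControl, 3 and 7 in siJunb, 6 and 4 in siH1f0), Hist3h2ba (11 and 10, 8 and 0, 4 and 8), Hist2h2ab (9 and 1, 0 and 3, 2 and 0) and Hist3h2bb-ps (4 and 2, 2 and 0, 0 and 4). Of these, Hist3h2ba was lower in every knockdown library than in both siControl libraries, and the other 3 overlapped in at least 1 comparison. These genes were not tested in the comparison as reported. In Hist2h3b, siControl 1 (0.395 CPM) was the highest library, while siControl 2 (0.106 CPM) lay below siJunb 2 (0.144 CPM).

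Without siControl 1, 8 genes were called in siH1f0, all lower. They held 5 of the 7 above (Hist1h2al, Hist1h2bc, Hist1h2be, Hist2h2bb and Hist2h2be) and in addition Hist1h2bk, Hist1h4k and Hist3h2a. Without siControl 2 the number was 30 and held all 7. Over all genes the lower calls went from 574 to 1645 without siControl 1 (12.0% of those tested, against 21.1% of the tested core histone genes) and to 2331 without siControl 2 (17.0% against 71.4%). The median log2 change was −0.98 without siControl 1 and −1.95 without siControl 2. As for siJunb, the filter then kept more core histone genes (38 without siControl 1 and 42 without siControl 2). The shares without siControl 2 are therefore not read as a result. Without siH1f0 1 none was called (adjusted p from 0.0505, for Hist2h2bb, to 0.302, for Hist1h2al), nor without siH1f0 2 (0.0526, for Hist1h2bc, to 0.255, for Hist1h4n). Without either siJunb library 3 remained, Hist1h2bc, Hist1h2be and Hist2h2bb, while Hist2h2be had adjusted p = 0.0547 and 0.0539. The calls over all genes fell too, from 879 to 116 and 129 without siH1f0 1 and 2, and to 336 and 339 without siJunb 1 and 2.

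**Figure D4:**
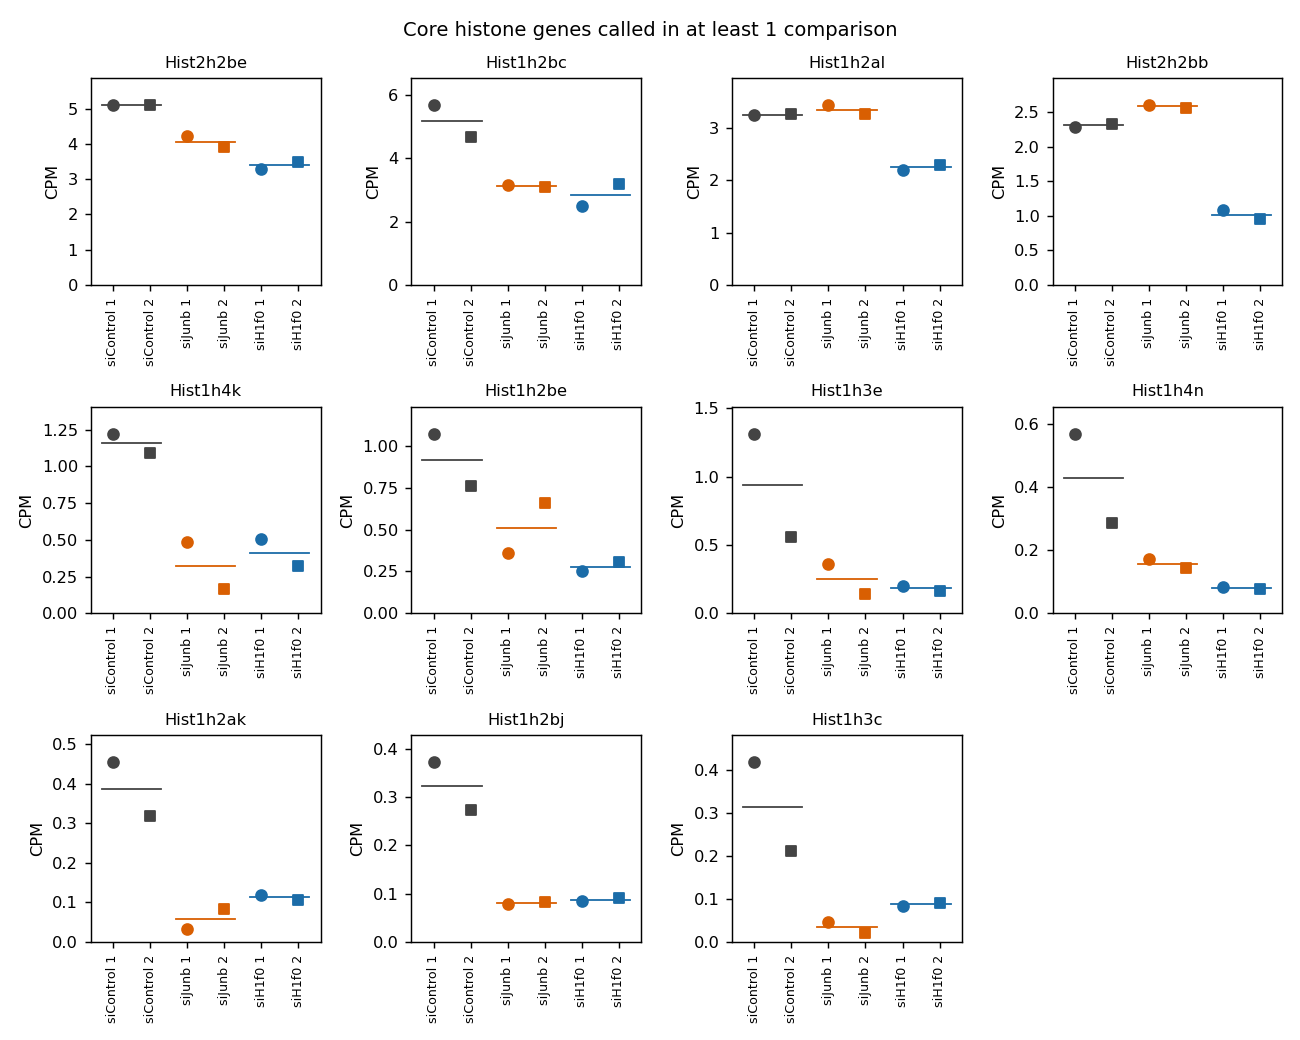
CPM (vertical axes from 0, a scale per panel) in each library (points) with the group mean (lines) for the 11 core histone genes called in at least 1 comparison, from the highest mean level to the lowest. Hist2h2be, Hist1h2al and Hist2h2bb have nearly equal siControl libraries, and Hist1h3e has 1.31 and 0.561 CPM.

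Compared with each other, the knockdowns differed in 2 core histone genes, both lower in siH1f0, against 13.8% of all genes lower and 12.2% higher (25.9% called either way). These were Hist2h2bb, with a log2 difference of −1.39 (SE 0.17, adjusted p = 7.18e-04), and Hist1h2al, with −0.63 (SE 0.14, adjusted p = 0.0105). This comparison uses no siControl library for its direction, and the Hist2h2bb call held under all 14 alternatives that tested it. The Hist1h2al call was lost when any of the 4 knockdown libraries was left out (adjusted p = 0.0844 and 0.0528 without siJunb 1 and 2, and 0.0844 and 0.0637 without siH1f0 1 and 2). The share of core histone genes called was below the background here. The log2 difference was negative for 23 of the 36, with a median of −0.23, and 3 genes were at an unadjusted p under 0.05, all lower. In CPM, 13 of the 54 genes were lower in both siH1f0 libraries than in either siJunb library, 4 were higher and 37 overlapped, against 27.1% lower and 41.5% higher among all genes with at least 10 counts.

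The counts of many core histone genes rest on sequence they share. In 24 of the 54, at least 50% of the 50-base windows of the GENCODE transcript also occur in the transcript of another Hist gene: 10 H2A, 5 H2B, 6 H3 and 3 H4 genes. How reads that match several places were counted is not given in the sources used here, so the values of single genes among them are uncertain. Of the called genes this holds for Hist1h2ak (52.3% of windows), Hist1h2al (67.6%), Hist1h2bj (59.4%), Hist1h3e (73.4%), Hist1h4k (71.5%) and Hist1h4n (85.6%). It does not hold for Hist1h2bc (29.4%), Hist1h2be (16.3%), Hist1h3c (47.0%), Hist2h2be (0) or Hist2h2bb (0).

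Other genes of the histone pathway were read from lists, against the 16.5% (siJunb) and 6.55% (siH1f0) of all genes called. A share near these values is no result about a list. Of 24 tested genes for histone mRNA transcription and 3′ end processing, 3 fell and 1 rose in siJunb, and 0 were called in siH1f0, so the siJunb share was near the background. Ccne2, a cyclin that activates Cdk2 at S phase entry, fell by 0.48 on the log2 scale (adjusted p = 0.0110), Cstf2, a cleavage factor, by 0.38 (adjusted p = 0.0191) and Ncbp2, a subunit of the cap-binding complex, by 0.18 (adjusted p = 0.0468). Lsm11, a component of the U7 particle that guides histone mRNA cleavage, rose by 0.39 (adjusted p = 0.00493). Slbp itself was at 290 and 274 CPM with siControl, 281 and 285 CPM with siJunb and 298 and 307 CPM with siH1f0, and Npat, the coactivator of histone transcription, was not called either. The median log2 change over the list was −0.02 in siJunb and 0.02 in siH1f0.

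Of 21 tested histone chaperones and import factors, 2 fell and 2 rose in siJunb, and 2 fell in siH1f0, which is again close to the background in both. In siJunb, Anp32e, a chaperone of H2A.Z, fell by 0.24 on the log2 scale (adjusted p = 0.0105), and Supt16, a subunit of the FACT complex, rose by 0.18 (adjusted p = 0.0294). In siH1f0, Ubn1, a partner of the H3.3 chaperone Hira, fell by 0.57 (adjusted p = 4.85e-04) and Supt16 by 0.29 (adjusted p = 0.00832). Of 28 S phase genes, 3 fell and 0 rose in siJunb (Ccne2, Clspn and E2f1), where 7.82% of all genes were lower, so this share was near the background. In siH1f0, 5 rose and 0 fell, where 2.27% of all genes were higher. The 5 were led by Dtl at 0.35 (adjusted p = 0.00626) and Cdc6 at 0.32 (adjusted p = 0.00835). The median log2 change of the S phase genes was −0.03 in siJunb and 0.13 in siH1f0, where the tested core histone genes had −1.12 and −1.48. The core histone medians are over the genes that the filter kept, and both were smaller in size without siControl 1, as given above. The cause of the difference between the lists was not tested.

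Histone genes beyond the core members of the clusters were read alongside. Of 5 tested linker histone genes of Hist1, Hist1h1c was called in siJunb, and Hist1h1c and Hist1h1e in siH1f0, all lower. Of all genes, 7.82% were lower in siJunb and 4.27% in siH1f0, and with 5 genes no share is read from this. Hist1h1c, at 40.0 and 36.1 CPM with siControl, was the most abundant, and it stood at 23.5 and 23.5 CPM with siJunb (log2 −0.66, adjusted p = 5.75e-04) and 20.97 and 21.6 CPM with siH1f0 (log2 −0.85, adjusted p = 2.50e-04). The groups did not overlap, and the siControl libraries were close. Of 9 core histone genes outside the clusters, whose mRNAs are polyadenylated as a rule, 4 fell in siJunb (H2afv, H2afx, H2afy2 and H3f3b, by 0.34, 0.30, 0.25 and 0.18 on the log2 scale) and 1 in siH1f0 (H2afz, by 0.22), where 7.82% and 4.27% of all genes were lower. With so few genes nothing particular to the list is read from this. These 9 summed to 2580 and 2364 CPM with siControl, 2193 and 2168 CPM with siJunb and 2405 and 2444 CPM with siH1f0, so that here the siH1f0 libraries lay within the range of siControl.

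As a sum, the RNAs without poly(A) tails were lower in both siH1f0 libraries than in either siControl library. The siJunb libraries (6589 and 5018 CPM) lay on either side of siControl 2 (6314 CPM). Of 12 tested, 3 fell in siJunb (Rmrp, Rpph1 and Rnu11) and 7 in siH1f0, and 0 rose. Of all genes tested, 7.82% were lower in siJunb and 4.27% in siH1f0. The median log2 changes of the 12 were −1.11 and −1.82. Rn45s stood at 18980 and 6274 CPM with siControl, 6547 and 4986 CPM with siJunb and 3082 and 3479 CPM with siH1f0. Rmrp, the RNA of an enzyme that processes ribosomal RNA, stood at 26.3 and 6.64 CPM, 5.68 and 3.29 CPM, and 2.51 and 2.42 CPM. As in the H3 and H4 sums, siControl 1 was the highest library, siControl 2 lay closer to siJunb than to siControl 1, and a siH1f0 library was the lowest. The part of these RNAs in the core histone results was not tested. The germ cell markers, which bear on the testis type gene Hist1h2ba, summed to between 3.76 and 6.84 CPM, with 2 of the 4 at 0.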

How the data were processed

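The authors deposited raw counts of poly(A) RNA-seq reads per gene symbol for 6 mouse libraries. The table also holds a gene length in bases, used here for CPM per kb. HISAT2, Subread, featureCounts and the build mm10 are named in the submitters' processing notes. Not given in the sources used here are the annotation release, the strand setting and how multiply matching reads were counted. The analysis used edgeR 4.0.16 in R 4.3.3 (TMM factors 0.979 to 1.02, filterByExpr, quasi-likelihood F test, group as the only term over all 6 libraries, 3 residual degrees of freedom). The threshold was an adjusted p under 0.05 (Benjamini-Hochberg over 13427 genes). SE is the log2 change divided by the square root of F. With 2 libraries against 2, the smallest exact two-sided permutation p is 0.333, so calls rest on the spread shared across genes, and they measure the spread between these libraries of 1 line. CPM are scaled to the total count, and depth limits genes under 1 CPM most. The script was tested on simulated data.

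Members and gene lists were chosen with earlier results of these data known. Named genes were those called in any comparison, the 10 highest by mean CPM, the 2 highest of each type per kb, the 5 with the largest difference between siControl libraries (mean of at least 0.2 CPM) and all of Hist2, Hist3 and Hist4. Of each other list up to 3 called genes with the smallest p are named. Genes named beyond this rule (Slbp, Npat, Hist1h2bg, Hist1h2bk, Hist1h2ae, Hist1h4j and those under the count minimum) were chosen after their values were seen. All 63 symbols matched GENCODE M21 and, by older symbol, RefSeq GRCm38.p6. Alternatives were RLE factors, total counts, other count filters, DESeq2 1.42.0, limma-voom 3.58.1, the 4 compared libraries alone, a replicate block, and each library left out.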

Additional observations from a re-analysis of the deposited data

How the results depend on the processing

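The direction of every named core histone gene that was called held under each alternative that tested it, and 0 results reversed. RLE factors left the 6, 7 and 2 calls (siJunb, siH1f0 and the direct comparison) as they were, and total counts gave 6, 8 and 2. Total counts did move the split over all genes, to 1369 lower and 884 higher in siJunb (1050 and 1159 with TMM) and to 1340 and 2222 in the direct comparison (1847 and 1637). Without a count filter 12, 16 and 3 core histone genes were called. With a mean of at least 5 CPM there were 0, 0 and 0, since 1 gene (Hist3h2a) was left to test, with 0, 1 and 0 at an unadjusted p under 0.05. DESeq2 called 3, 6 and 2, and it gave an adjusted p to 14, 8 and 14 core histone genes only. With the 4 compared libraries alone there were 4, 3 and 2, and with limma-voom 5, 5 and 2. Leaving out 1 library at a time gave 0 to 22 calls for siJunb, 0 to 30 for siH1f0 and 1 to 2 for the direct comparison, while the calls over all genes ranged from 352 to 5521, 116 to 4932 and 1304 to 6435. The lowest counts came without siJunb 2 (0 calls, 9 genes at an unadjusted p under 0.05) and without siH1f0 1 or 2 (0 calls each, 21 genes each), where the lone library was taken to vary as the other groups do. The highest came without siControl 2, where the filter also keeps genes that are high in siControl 1 alone. With the replicate block 5, 6 and 2 were called. Deviations of same-numbered libraries correlated at 0.048, −0.041 and 0.063 over 13427 genes, which gives no sign that the numbers pair the libraries. Summed CPM kept their order of groups with TMM factors and without Hist3h2a and Hist2h2be (31.9, 21.6, 15.9, 15.1, 12.2 and 11.9 CPM). The causes of these shifts were not tested. Depth limits the genes under 1 CPM, several with fewer than 10 counts in a library.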
